A study of Mus musculus with 12 samples.

Results

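A set of 10 phosphodiesterase genes was followed across the left ventricle of mice given pimobendan, a drug that inhibits enzymes of this family. The genes were Pde3a, Pde3b, Pde1c, Pde2a, Pde5a, Pde4a, Pde4b, Pde4d, Pde7a and Pde8a, taken by symbol, and they are 10 of the 17052 genes in the table. Polyadenylated RNA was sequenced from 12 C57BL/6 mice, each library from a separate mouse, with 3 mice in each of 4 groups. Surgery was done at 8 weeks of age and the ventricle was taken at 12 weeks. Sham+control mice had the operation without ligation of the aorta and were given no pimobendan according to the labels. Sham+pimobendan mice had the same operation and pimobendan by mouth at 1 mg/kg/day for 4 weeks. TAC+control mice had transverse aortic constriction (TAC), a clip that narrows the aortic arch and loads the left ventricle with pressure, and no pimobendan. TAC+pimobendan mice had the clip and the same course of the drug. The sex of the mice and the vehicle, if any, of the control groups are not given in the sources used here. Values are FPKM, fragment counts scaled by transcript length and by library depth, which allow levels of different genes to be compared per length.

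Phosphodiesterases break the phosphodiester ring of cAMP and cGMP and so end the signals of these messengers. In heart muscle, cAMP acts through protein kinase A on calcium channels, phospholamban and the sarcomere and raises the force and rate of the beat, while cGMP generally opposes this. Pimobendan raises contractility in part by blocking PDE3, which degrades cAMP near the sarcoplasmic reticulum, and in part by making troponin more sensitive to calcium. The drug acts on the enzyme, so the transcript levels given here do not measure its direct action.

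All 10 members share a catalytic site in which a short conserved signature binds metal ions, and the coding stretch of that signature is shown because it is a feature by which the family is recognised. Each run of 36 bases is read 5′ to 3′ on the coding strand from GENCODE transcripts of GRCm38, lies within a coding exon, and has in capitals the codons at places 1, 2, 5 and 10 of the signature, counted from its first codon. At place 10 the codon is CAG in Pde7a, and AAT or AAC in the other 9 members.
Pde3a, chr6:141487899-141487934, plus strand: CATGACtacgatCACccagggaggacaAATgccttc
Pde3b, chr7:114526921-114526956, plus strand: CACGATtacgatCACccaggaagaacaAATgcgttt
Pde1c, chr6:56158941-56158976, minus strand: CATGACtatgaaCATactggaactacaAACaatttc
Pde2a, chr7:101508482-101508517, plus strand: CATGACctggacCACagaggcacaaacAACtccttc
Pde5a, chr3:122824966-122825001, plus strand: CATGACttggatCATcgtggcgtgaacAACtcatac
Pde4a, chr9:21204375-21204410, plus strand: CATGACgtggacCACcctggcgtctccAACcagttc
Pde4b, chr4:102599694-102599729, plus strand: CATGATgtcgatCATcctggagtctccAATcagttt
Pde4d, chr13:109939313-109939348, plus strand: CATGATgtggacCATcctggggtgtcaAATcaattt
Pde7a, chr3:19233715-19233750, minus strand: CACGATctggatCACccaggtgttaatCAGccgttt
Pde8a, chr7:81324067-81324102, plus strand: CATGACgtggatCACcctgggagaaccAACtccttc
The pairs Pde3a with Pde3b and Pde4b with Pde4d were alike at 30 of 36 bases, the highest counts among the 45 pairs. Pde4a matched Pde4b at 29 bases and Pde4d at 28. The cGMP-binding enzymes Pde2a and Pde5a matched at 26 bases. Some pairs across families were as close or closer, with Pde8a matching Pde3a and Pde2a at 28 bases each, Pde4a at 27 and Pde5a at 26. Pde1c and Pde7a were the least alike, with 16 identical bases.

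Pde2a and Pde4a were the most abundant members per length, and Pde3b and Pde5a the least. Mean levels over the 12 libraries were 27.7 ± 5.12 FPKM (SD, n = 12) for Pde2a and 25.2 ± 4.03 for Pde4a. Both lay above a middle band of Pde4b (10.2 ± 2.34), Pde8a (9.86 ± 1.16), Pde7a (9.67 ± 2.54), Pde3a (8.30 ± 1.57), Pde1c (8.01 ± 2.30) and Pde4d (6.63 ± 1.09). Pde3b had 0.818 ± 0.251 FPKM and Pde5a 0.730 ± 0.156. In this order of FPKM levels, the ranges of neighbours were apart at 2 steps, from Pde4a to Pde4b and from Pde4d to Pde3b, where the higher gene led in 12 of 12 libraries. At the other steps the ranges overlapped: Pde2a lay above Pde4a in 8 of 12 libraries, and Pde3a above Pde1c in 6 of 12. The main target of pimobendan in heart muscle, Pde3a, was thus the sixth of the 10 by transcript level, and the level of Pde3b, the PDE3 form best known from fat and liver, was lower than that of Pde3a in every library.

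**Figure D1:**
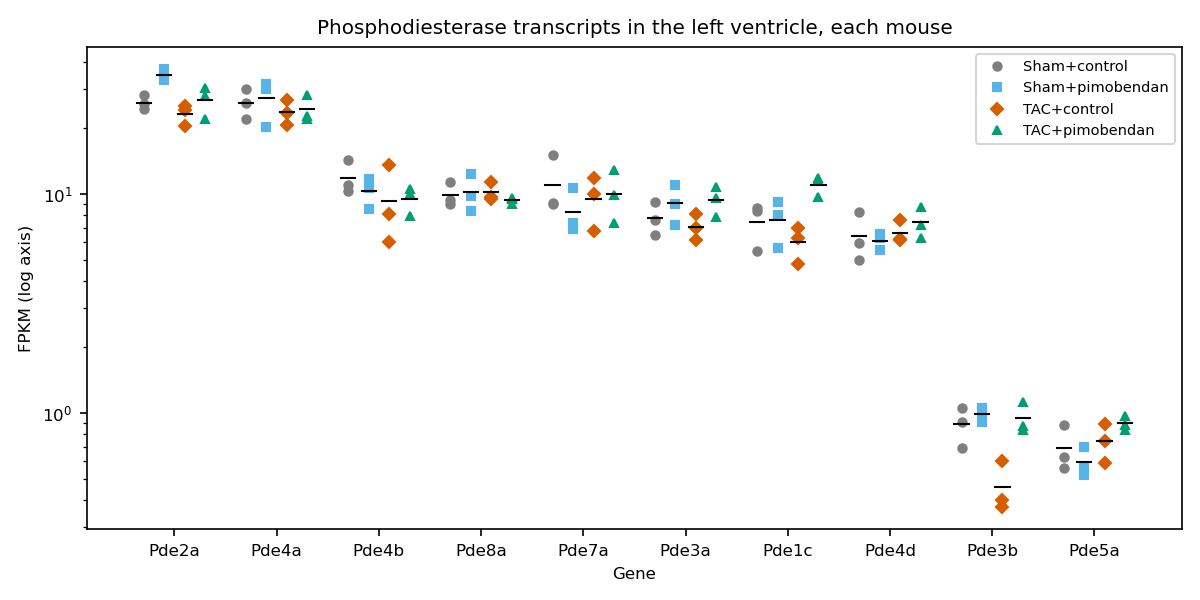
FPKM of the 10 phosphodiesterase genes on a log axis, with a point for each mouse (grey circles Sham+control, blue squares Sham+pimobendan, orange diamonds TAC+control, green triangles TAC+pimobendan) and a short bar at each group mean. Pde2a and Pde4a lie above 20 FPKM in all 12 mice, Pde3b and Pde5a near or below 1 FPKM, and the TAC+pimobendan triangles of Pde1c (9.63 to 11.8) lie above all 9 other mice.

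The 12 libraries summed to between 593203 and 643478 FPKM, with 10809 to 11292 genes at 1 FPKM or more. No counts were in the table. The step size of low FPKM values put depth at roughly 9.0 M to 13.1 M fragments per library, an estimate in which 61.9% to 72.5% of the values used fell within 0.1 fragment of a whole number. On that estimate the FPKM of Pde5a rested on 45 to 77 fragments per library and that of Pde3b on 24 to 80, against 420 to 1100 for Pde1c and 850 to 1400 for Pde3a. These fragment numbers assume the longest transcript of each gene, and shorter transcripts would give fewer. For Pde3b the longest had 6573 bases and the median transcript 1688.5. Libraries differed in how their values moved with base composition. Ranking genes by the GC content of their transcripts and by their departure from the 12-library mean gave Spearman correlations between -0.52 and -0.20 in TAC+pimobendan libraries and between 0.010 and 0.28 in TAC+control libraries. The sham libraries ran from 0.14 to 0.53 with the drug and from -0.35 to 0.46 without it. These values describe libraries across genes and carry no test. The 7 cardiomyocyte markers, Myh6 and Tnnt2 among them, summed to between 41050 and 47586 FPKM in every library. Single markers of this list moved in both directions with the drug after TAC, as given below for Pln and Actn2. Markers of adipocytes summed to at most 2.14 and of lymphocytes to at most 2.19. In such bulk tissue, fewer cells of a type and less RNA per cell cannot be told apart.

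To ask what the drug does to transcripts of its own target family in the loaded heart, TAC+pimobendan was compared with TAC+control. In the fit without pairing, Pde1c rose and no other member passed the test. With the replicate number as a block, 0 of 9 members passed. Of the 9 members tested, 8 had a positive log2 fold change (6 under median-ratio scaling, 4 under quantile normalization and 5 with the GC trend removed), against 66.0% of all 11415 genes tested, and the median over members was 0.13 against 0.095 over all genes. Genes were called at an adjusted p under 0.05 from limma, and 1 of 9 members was called where the share over all genes was 3.27%. The fit used log2(FPKM + 1), a scale that understates the change of genes with low FPKM. A gene needed at least 1 FPKM in at least 3 libraries to be tested, and Pde5a reached 1 FPKM in none. Pde3b reached 1 FPKM in 4 libraries, none of them TAC+control, so it entered the test through groups in which it was higher.

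Pde1c, a calcium- and calmodulin-activated enzyme that degrades both cAMP and cGMP and is found in heart muscle (NCBI Gene 18575, GRCm38 chromosome 6, 56069798 to 56652674), was highest in the TAC+pimobendan mice. They had 9.63, 11.56 and 11.8 FPKM (mean 11.0 ± 1.19, SD, n = 3), against 6.94, 4.76 and 6.27 in TAC+control (5.99 ± 1.12). Sham+control mice had 8.57, 8.31 and 5.49 (7.46 ± 1.71) and Sham+pimobendan mice 9.11, 8.01 and 5.62 (7.58 ± 1.78). All TAC+pimobendan mice thus lay above all TAC+control mice and above both sham groups, which overlapped each other. Groups without overlap in TAC+pimobendan against TAC+control were found for 29.9% of all genes tested, and Pde1c and Pde3b were the members among them.

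With the drug after TAC, Pde1c had a log2 fold change of 0.79 ± 0.19 (SE), with a 95% confidence interval from 0.38 to 1.19 and a limma adjusted p of 0.0463. It was 0.69 when taken relative to the median of all genes. That median itself moved from 0.095 to -0.021 under quantile normalization, where Pde1c stood at 0.67 above it. After sham surgery the drug gave Pde1c a log2 fold change of 0.020 ± 0.19 (adjusted p = 0.992), a value whose sign turned when Sham+control replicate 3 (-0.16) or Sham+pimobendan replicate 1 or 2 was left out. The difference between the drug effects after TAC and after sham was 0.77 ± 0.26 for Pde1c (95% confidence interval 0.20 to 1.34) and did not pass over all genes (limma adjusted p = 0.136). In this test of the difference 0 of 11415 genes were called (0%), and 2312 had an unadjusted p under 0.05. TAC itself gave Pde1c -0.27 ± 0.19 without the drug (adjusted p = 0.713) and 0.50 ± 0.19 with it (adjusted p = 0.131).

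The rise of Pde1c was positive in 22 of 22 alternative settings, from 0.60 to 0.89, and passed in 7 of them (adjusted p from 0.0253 to 0.181). The transcripts of Pde1c had a GC content of 46.4%, below the median of 51.1% over genes tested, and the 360 genes that rose in this comparison had a median of 44.2%. With the GC trend of each library removed, Pde1c stood at 0.60 ± 0.17 (adjusted p = 0.119) and 0 genes were called. Deviations of same-numbered mice of these 2 groups from their group means correlated weakly (r from 0.101 to 0.208). With the replicate number as a block, the adjusted p of Pde1c was 0.0833 and 1 gene was called in place of 373. The call also ended under median-ratio scaling (0.70, adjusted p = 0.0738), under quantile normalization (0.64, adjusted p = 0.129), with no filter (adjusted p = 0.0760) and in a fit of only the groups compared (adjusted p = 0.0867). Leaving out a library ended it for Sham+control replicate 2 (adjusted p = 0.0596), Sham+pimobendan replicates 1 (0.0521) and 2 (0.0605), TAC+control replicates 1 (0.149), 2 (0.0773) and 3 (0.102), and TAC+pimobendan replicates 2 (0.166) and 3 (0.143). Smooth muscle and pericyte markers summed to between 1187 and 1359 FPKM after TAC without the drug and between 1102 and 1198 with it. Of 9 tested, 7 had a positive log2 fold change with the drug after TAC (median 0.13, 0 called). The negative values were those of Acta2 (-0.96 ± 0.37) and Des (-0.20 ± 0.082). The sum weights each gene by its level, so it need not follow most of the list. Fibroblast markers summed to between 336 and 422 FPKM after TAC without the drug and between 424 and 489 with it, without overlap. Of 7 tested, 5 had a positive log2 fold change in this comparison (median 0.15, 0 called). The part of these cell types in the Pde1c value was not tested.

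**Figure D2:**
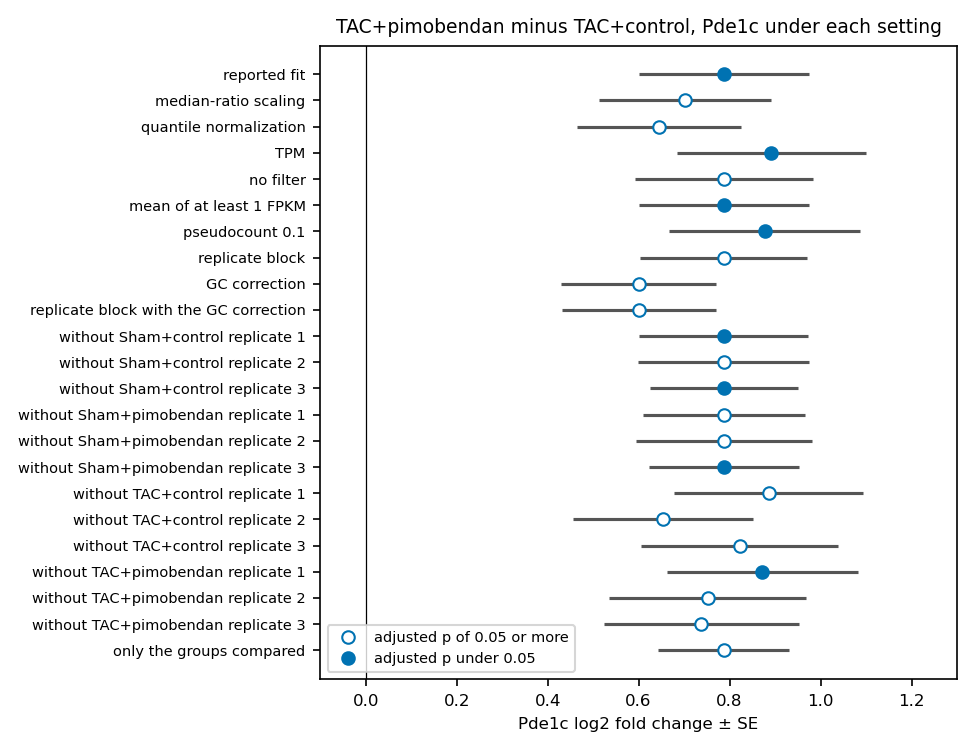
Log2 fold change of Pde1c in TAC+pimobendan minus TAC+control, with bars of 1 standard error, in the reported fit and 22 alternative settings; filled points have an adjusted p under 0.05 and open points do not. All points lie to the right of 0, between 0.60 and 0.89, and 7 of the 22 alternatives are filled.

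The PDE3 pair, the direct targets of pimobendan, had no change that passed the test in any comparison. Pde3a, the cardiomyocyte form that degrades cAMP at the sarcoplasmic reticulum (NCBI Gene 54611, chromosome 6, 141249269 to 141508905), had 9.17, 7.61 and 6.46 FPKM in Sham+control mice (7.75 ± 1.36) and 8.92, 10.94 and 7.20 in Sham+pimobendan mice (9.02 ± 1.87). After TAC it had 8.10, 6.95 and 6.15 FPKM without the drug (7.07 ± 0.980) and 9.51, 7.84 and 10.69 with it (9.35 ± 1.43). The 4 groups of Pde3a overlapped, although both drug groups had the higher means. Its log2 fold change with the drug was 0.36 ± 0.16 after TAC (95% confidence interval 0.0065 to 0.71, limma adjusted p = 0.181) and 0.19 ± 0.16 after sham (adjusted p = 0.910). The mean of both drug effects on Pde3a was 0.27 ± 0.11 (95% confidence interval 0.026 to 0.52, adjusted p = 0.389). These effects did not differ detectably, the difference being 0.17 ± 0.23 (95% confidence interval -0.33 to 0.66, adjusted p = 0.736). TAC gave Pde3a -0.11 ± 0.16 without the drug and 0.054 ± 0.16 with it, and the signs turned when Sham+control replicate 1 was left out of the first (0.0023) or replicate 3 of Sham+pimobendan (-0.082) or of TAC+pimobendan out of the second.

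Pde3b, the second PDE3 gene (NCBI Gene 18576, chromosome 7, 114411891 to 114539041), was lowest in TAC+control. Mice of that group had 0.37, 0.40 and 0.60 FPKM (0.457 ± 0.125, SD, n = 3). Sham+control mice had 0.91, 1.05 and 0.69 (0.883 ± 0.181), Sham+pimobendan mice 1.05, 0.91 and 1.01 (0.990 ± 0.072), and TAC+pimobendan mice 0.83, 0.87 and 1.12 (0.940 ± 0.157). Each TAC+control mouse thus lay below each of the other 9. The log2 fold change of Pde3b was -0.37 ± 0.12 for TAC without the drug (limma adjusted p = 0.520) and 0.41 ± 0.12 for the drug after TAC (adjusted p = 0.0633), and these comparisons share the TAC+control mice. Groups without overlap in TAC+control against Sham+control were found for 12.7% of genes tested, and Pde3b was the only member of 9 among them.

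Pde3b had the lowest GC content of the members, at 38.3%. With the GC trend removed, its log2 fold change for the drug after TAC was -0.0505 (adjusted p = 0.869), opposite in sign to the reported value, and the difference between the drug effects after TAC and sham turned from 0.33 ± 0.17 to -0.28. With TPM in place of FPKM the drug effect on Pde3b after TAC was 0.57 and passed (adjusted p = 0.0401). Adipocyte markers, from the cell type in which PDE3B is best known, summed to between 0 and 2.14 FPKM over all libraries, and none of the 6 was at 0 in all 12. Their part in the Pde3b values was not tested.

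Erythroid markers include the globin genes and Alas2, which starts heme synthesis in red cell precursors. They moved between the groups in which Pde1c and Pde3b differed, and also with the drug after sham, where these members differed little. Their summed level ran from 4200 to 6703 FPKM in TAC+control mice (median 4258), above all 9 other mice, and from 1143 to 2282 FPKM in TAC+pimobendan mice (median 1960). It ran from 1553 to 3064 FPKM in Sham+control mice (median 2037) and from 452 to 1907 FPKM in Sham+pimobendan mice (median 1074). With the drug after TAC, 0 of 6 tested had a positive log2 fold change (median -1.37), and Alas2 fell (-1.22 ± 0.26, limma adjusted p = 0.0409, passing in 8 of 22 alternatives). TAC without the drug gave a positive value in 6 of 6 (median 1.11, 0 called), and TAC with the drug also in 6 of 6 (median 0.79, 0 called). The drug after sham gave a positive value in 0 of 6 (median -1.09, 0 called), where Pde1c stood at 0.020 and Pde3b at 0.083. The part of blood content in the Pde1c and Pde3b values was not tested.

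**Figure D3:**
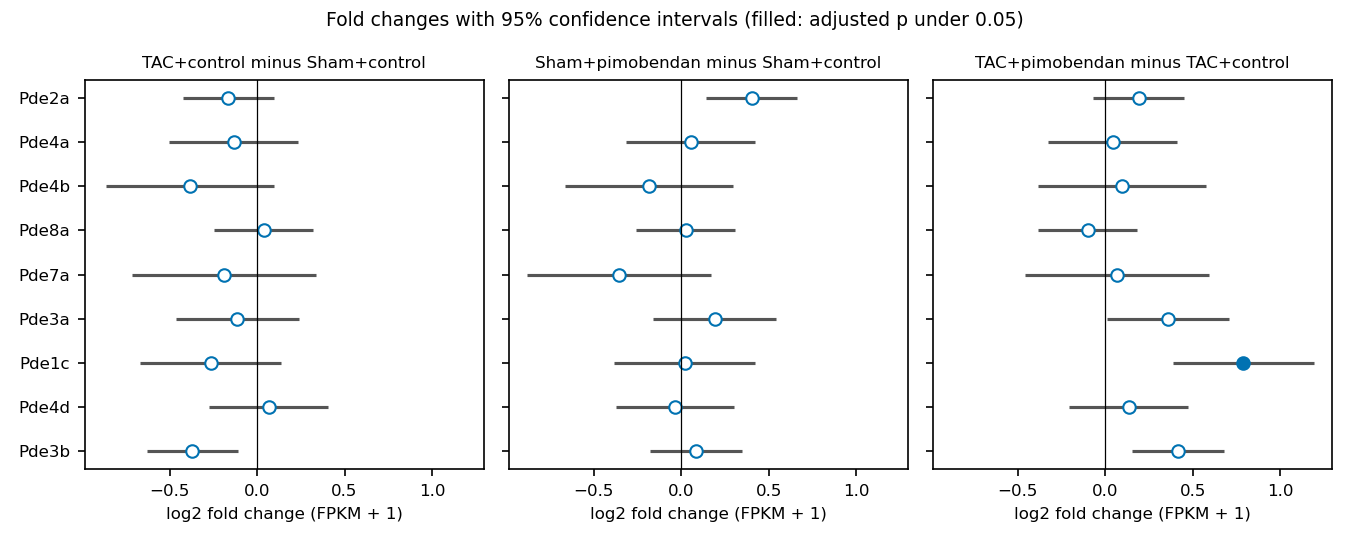
Log2 fold changes on the FPKM + 1 scale (points) with 95% confidence intervals (bars) for the 9 members tested, in TAC without the drug, the drug after sham surgery and the drug after TAC; a filled point has an adjusted p under 0.05. Only Pde1c in the drug comparison after TAC (0.79) is filled, while intervals clear of 0 with an open point belong to Pde3b in both TAC panels, Pde3a after TAC with the drug, and Pde2a in the sham panel.

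Among the enzymes tied to cGMP, Pde2a was highest in the sham mice given the drug. Pde2a is activated by cGMP and then degrades cAMP as well (NCBI Gene 207728, chromosome 7, 101421691 to 101512829). Sham+pimobendan mice had 32.95, 34.15 and 37.1 FPKM (34.7 ± 2.14), and Sham+control mice 28.12, 24.29 and 25.75 (26.1 ± 1.93). TAC+control mice had 23.97, 25.12 and 20.42 (23.2 ± 2.45) and TAC+pimobendan mice 30.48, 21.84 and 27.79 (26.7 ± 4.42). The Sham+pimobendan mice lay above all 9 other mice, and the remaining groups overlapped. Groups without overlap in Sham+pimobendan against Sham+control were found for 11.1% of genes tested, and Pde2a was the only member among them.

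The log2 fold change of Pde2a for the drug after sham was 0.40 ± 0.12 (95% confidence interval 0.14 to 0.66), and it did not pass over all genes (limma adjusted p = 0.910). In that comparison limma called 0 of 11415 genes (0%), with 518 at an unadjusted p under 0.05. After TAC the drug effect on Pde2a was 0.19 ± 0.12 (adjusted p = 0.337), and the mean of both was 0.30 ± 0.085 (adjusted p = 0.308). The mean drug effect was called for 0.00876% of genes tested and for 0 of 9 members. With the drug in both groups, Pde2a was lower after TAC than after sham by -0.38 ± 0.12 (adjusted p = 0.0819), which passed when TAC+pimobendan replicate 1 was left out (-0.48, adjusted p = 0.0303) and stood at -0.25 without replicate 2. In that comparison 4.89% of all genes were called and 0 of 9 members, and groups did not overlap for 27.9% of all genes and for Pde1c and Pde2a.

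Endothelial markers, from a cell type that expresses PDE2, were measured beside Pde2a. Of 8 tested, 7 had a positive log2 fold change for the drug after sham (median 0.13) and 0 were called. With the drug in both groups, 6 of 8 were negative after TAC (median -0.36), and Pecam1 (-0.45 ± 0.12, limma adjusted p = 0.0497) and Esam (-0.39 ± 0.095, adjusted p = 0.0409) fell, calls that passed in 5 and 9 of 22 alternatives. The summed endothelial FPKM ran from 407 to 495 in Sham+control mice and from 383 to 515 in Sham+pimobendan mice, and after TAC from 292 to 385 without the drug and from 326 to 376 with it. Both Pde2a and this sum had their highest value in Sham+pimobendan, although the sums of the sham groups overlapped and Pde2a did not. The part of endothelial content in the Pde2a values was not tested.

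Pde5a, the cGMP-specific enzyme blocked by sildenafil (NCBI Gene 242202, chromosome 3, 122729158 to 122859374), was below 1 FPKM in 12 of 12 mice. Sham+control mice had 0.88, 0.56 and 0.63 FPKM (0.690 ± 0.168) and Sham+pimobendan mice 0.70, 0.57 and 0.52 (0.597 ± 0.0929). TAC+control mice had 0.74, 0.89 and 0.59 (0.740 ± 0.150) and TAC+pimobendan mice 0.88, 0.83 and 0.97 (0.893 ± 0.0709). The TAC+pimobendan mice overlapped both control groups and lay above the 3 Sham+pimobendan mice. Without a filter on low values, the largest log2 difference of Pde5a was 0.25 on the FPKM + 1 scale, in TAC+pimobendan minus Sham+pimobendan, and it did not pass (adjusted p = 0.201).

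**Figure D4:**
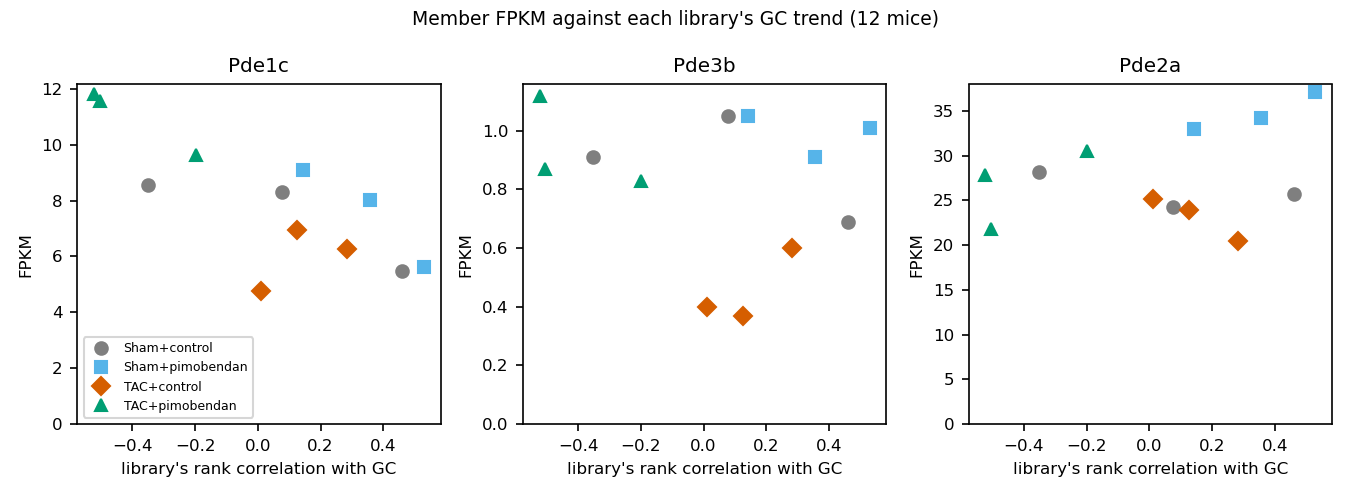
FPKM of Pde1c, Pde3b and Pde2a in each of the 12 mice against the GC trend of its library, the Spearman correlation across genes between transcript GC content and departure from the 12-library mean; symbols give the group. The TAC+pimobendan libraries (green triangles) have GC trends from -0.52 to -0.20 and the highest Pde1c values, TAC+control (orange diamonds) the lowest Pde3b values, and Sham+pimobendan (blue squares) the highest Pde2a values.

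The cAMP-specific members overlapped in each of the 4 pairs of groups compared. Pde4a, Pde4b and Pde4d belong to the rolipram-sensitive PDE4 family, of which Pde4d binds the ryanodine receptor and beta-adrenergic complexes and Pde4b the L-type calcium channel. Pde4a had group means of 25.9 ± 4.09 FPKM after sham and 23.5 ± 3.15 after TAC without the drug, and of 27.2 ± 6.21 and 24.2 ± 3.38 with it, with single mice from 20.13 to 31.63. The lowest and the highest Pde4a value both came from Sham+pimobendan mice. Pde4b had 14.21, 10.99 and 10.29 FPKM in Sham+control mice and 8.51, 11.65 and 10.62 in Sham+pimobendan mice. After TAC it had 8.06, 6.02 and 13.54 FPKM without the drug and 10.51, 7.93 and 9.97 with it. A single TAC+control mouse held the second highest Pde4b value of all 12 while its group also held the lowest. Pde4d ran from 4.97 to 8.66 FPKM, with group means of 6.39 ± 1.66 in Sham+control mice, 6.10 ± 0.533 in Sham+pimobendan mice, 6.63 ± 0.820 after TAC alone and 7.39 ± 1.19 after TAC with the drug.

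Pde7a and Pde8a encode enzymes with high affinity for cAMP, and that of Pde8a is insensitive to the broad inhibitor IBMX. Pde7a had 9.05, 14.97 and 8.94 FPKM in Sham+control mice and 10.57, 6.86 and 7.36 in Sham+pimobendan mice. After TAC it had 11.73, 6.76 and 9.92 FPKM without the drug and 7.32, 12.8 and 9.81 with it. The Sham+control mice alone spanned more than the 4 group means of Pde7a, which ran from 8.26 to 11.0 FPKM. Pde8a was the steadiest member relative to its mean, between 8.33 and 12.29 FPKM, with 9.01, 9.40 and 9.58 in the TAC+pimobendan mice. For these 5 cAMP-specific members, every 95% confidence interval in the 4 pairwise comparisons included 0, and the bounds ran from -0.88 to 0.76 on the log2 scale, both set by Pde7a. Macrophage markers, from cells that use PDE4B, summed to between 145 and 161 FPKM after TAC without the drug and between 150 and 199 with it, and 8 of 8 had a positive log2 fold change with the drug after TAC (median 0.26, 0 called). Their part in the PDE4 values was not tested.

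Summed over the 10 members, phosphodiesterase transcripts amounted to 107.8 ± 7.28 FPKM in Sham+control mice and 114.9 ± 7.72 in Sham+pimobendan mice, and after TAC to 96.4 ± 8.70 without the drug and 109.3 ± 6.89 with it. Pde2a and Pde4a together made up between 43.2% and 59.1% of that sum. The lowest sum, 86.97 FPKM, came from TAC+control and the highest, 121.8, from Sham+pimobendan. For TAC without the drug, 2 of 9 members tested had a positive log2 fold change and the median was -0.17, against -0.057 over all genes, and 0 of 11415 genes were called (0%; 951 at an unadjusted limma p under 0.05). Pde3b was the only member with an unadjusted p under 0.05 there.

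Of 14 other phosphodiesterase genes listed, 12 were in the table and 7 were tested. None was called in any of the 6 comparisons. With the drug after TAC, 6 of 7 had a positive log2 fold change (median 0.33). Pde7b, a cAMP-specific relative of Pde7a, had 5.27, 6.71 and 5.32 FPKM in TAC+pimobendan (5.77 ± 0.817) against 2.45, 3.94 and 3.68 in TAC+control (3.36 ± 0.796), with no overlap (log2 fold change 0.65 ± 0.22, limma adjusted p = 0.0885). Pde4c, the fourth PDE4 gene, had 2.56 ± 0.507 against 1.64 ± 0.230 FPKM (0.43 ± 0.15, adjusted p = 0.0924).

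Genes that make, sense or place the cyclic nucleotides were counted in the same comparison, in which 3.27% of all genes tested were called. Of 11 tested genes of cAMP and cGMP synthesis, 1 rose. Gucy1a1, the alpha subunit of the nitric oxide receptor guanylate cyclase, had 5.49 ± 0.369 FPKM in TAC+pimobendan against 3.55 ± 0.288 in TAC+control (0.51 ± 0.11, limma adjusted p = 0.0431). Its partner subunit Gucy1b1 had 8.23 ± 0.291 against 6.25 ± 0.304 FPKM (0.35 ± 0.094, adjusted p = 0.0547). Of 16 effectors, 1 rose: Rapgef4, the cAMP-activated exchange factor EPAC2, had 12.2 ± 1.25 against 8.96 ± 0.619 FPKM (0.41 ± 0.10, adjusted p = 0.0497). Its relative Rapgef3 (EPAC1) had 10.6 ± 0.560 against 8.18 ± 0.631 FPKM (0.34 ± 0.10, adjusted p = 0.0651). Creb1, the cAMP-responsive transcription factor, had 2.99 ± 0.569 against 1.96 ± 0.561 FPKM (adjusted p = 0.117), and it rose in TAC+pimobendan against Sham+pimobendan, where 4.89% of all genes were called (0.62 ± 0.16, adjusted p = 0.0498). That call passed in 6 of 22 alternatives and was lost with the GC trend removed (0.42, adjusted p = 0.183).

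Of 15 anchoring proteins tested, which hold protein kinase A and phosphodiesterases at shared sites, 2 rose with the drug after TAC. Akap6, the perinuclear mAKAP that binds PDE4D, had 17.4 ± 1.31 FPKM in TAC+pimobendan against 12.0 ± 0.530 in TAC+control (0.50 ± 0.12, limma adjusted p = 0.0457). Akap11 had 4.83 ± 0.856 against 2.81 ± 0.188 FPKM (0.60 ± 0.13, adjusted p = 0.0431). Akap9, which anchors PDE4D to the KCNQ1 potassium channel, had 2.38 ± 0.767 against 1.18 ± 0.183 FPKM (0.61 ± 0.16, adjusted p = 0.0527). All of these 3 anchoring genes rose in TAC+pimobendan against Sham+pimobendan, by 0.48 ± 0.12 for Akap6, 0.58 ± 0.13 for Akap11 and 0.60 ± 0.16 for Akap9 (adjusted p of 0.0411, 0.0360 and 0.0498). These calls passed in 9, 10 and 4 of 22 alternatives, and with the GC trend removed none passed (0.33, 0.24 and 0.39). That comparison shares the TAC+pimobendan mice with the one above.

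Of 11 substrates of protein kinase A tested, 1 rose. Pln, which encodes phospholamban, the brake on the calcium pump that protein kinase A releases, had 3446 ± 404 FPKM in TAC+pimobendan against 2427 ± 172 in TAC+control (0.50 ± 0.10, limma adjusted p = 0.0409). Pln is also 1 of the 7 cardiomyocyte markers, of which 3 had a positive log2 fold change here (median -0.064). Another of these markers, Actn2, fell (-0.38 ± 0.078, limma adjusted p = 0.0409), and it was not followed through the alternatives. Cacnb2, a subunit of the L-type calcium channel, had 28.5 ± 2.39 against 21.7 ± 2.22 FPKM (0.38 ± 0.10, adjusted p = 0.0536). Of 10 receptors and G proteins upstream of cAMP, 1 rose. Chrm2, the muscarinic receptor that lowers cAMP in the heart, had 27.0 ± 5.77 against 13.0 ± 1.80 FPKM (0.99 ± 0.17, adjusted p = 0.0409), and Gnai3, an inhibitory G protein subunit, 6.91 ± 1.202 against 4.51 ± 0.145 (0.51 ± 0.16, adjusted p = 0.0725). Pln and Chrm2 also rose in TAC+pimobendan against Sham+pimobendan (0.52 ± 0.10 and 0.84 ± 0.17, adjusted p = 0.0314 for each), calls that passed in 13 of 22 alternatives for each gene and were lost with the GC trend removed (0.26 and 0.58). The 6 genes of these pathway lists called for the drug after TAC (Gucy1a1, Rapgef4, Akap6, Akap11, Pln and Chrm2) had GC contents from 42.6% to 46.4%, close to that of Pde1c. With the GC trend removed none was called, and the log2 fold changes were 0.72 for Chrm2, 0.31 for Akap6, 0.29 for Akap11, 0.27 for Gucy1a1, 0.23 for Pln and 0.20 for Rapgef4. With the replicate block none was called (adjusted p from 0.0788 to 0.0865). Over the 22 alternatives, Chrm2 and Pln passed in 9 each, Gucy1a1 and Akap11 in 8 each, Akap6 in 6 and Rapgef4 in 3.

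By Pearson's r of log2(FPKM + 1) over the 12 libraries, the genes most like Pde3a were Tmem131l (0.93), Rab42 (0.91), Tbc1d4 (0.91), Nf1 (0.90) and Ssh2 (0.88). Those most like Pde1c were Taf1b (0.95), Prkab2 (0.95), Mospd2 (0.93), Etv5 (0.93) and March6 (0.93). The gene most like Pde5a was Psma4 (0.97), followed by Otud6b (0.93), Polr3g (0.93), Ergic2 (0.92) and Osbpl9 (0.92). These are the top 5 genes of those tested over the same 12 libraries, which share depth and GC trend, and they are given as a description. The Pde1c group of genes had GC contents from 39.9% to 51.8%.

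RefSeq promoter windows of GRCm38.p6, 300 bases long and reaching from upstream of a transcript start to just inside it, were matched by symbol for 7 of the 10 members, 18 windows in all. Pde3a, Pde3b and Pde7a had no window, so the promoters of the PDE3 pair were not searched. The half-site of the cAMP response element, TGACG on either strand, was in 4 of the 18, with 1 window each of Pde2a, Pde4a, Pde4b and Pde8a, and in 20.8% of all 32851 windows. The full palindrome TGACGTCA, which contains the half-site, was in 0 of the 18 and in 1.79% of all windows. The 3 windows of Pde1c held neither. They lay between 56362343 and 56369884 on chromosome 6, inside the gene, which is on the minus strand and reaches to 56652674. A start near that end was thus not searched.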

How the data were processed

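The authors deposited a single table of FPKM and TPM per gene and mouse, rounded to 2 decimals, and per the submitters' processing notes the tools were RSEM 1.2.12, Bowtie2 2.2.5, DESeq2 1.4.5 and HISAT2 2.0.4 on GRCm38, with no role stated; strand use in counting is not given in the sources used here. Groups and replicate numbers came from the labels, which do not say that a number marks a shared litter, batch or day. Deviations from group means correlated at 0.101 to 0.208 in the 3 same-number pairs of TAC+control with TAC+pimobendan, above the 0.1 used to treat these mice as paired. In the other 3 pairs of groups compared, 1 of 9 correlations was above 0.1. Over all pairs of groups, a library correlated best with the same-numbered library in 9 of 36 cases, each a choice among 3 libraries, so the pairing is uncertain. The reported fit left the replicate number out, and the block is given as an alternative. The fit was made on log2(FPKM + 1) by limma 3.58.1 (R 4.3.3) with a variance trend, 1 mean per group, 12 libraries and 8 residual degrees of freedom. A gene was tested if 3 or more libraries had 1 FPKM or more (11415 genes), Benjamini-Hochberg adjustment ran over all of them, and calls were made at an adjusted p under 0.05. The fit was tested on simulated data.

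Alternatives were other scalings, TPM, other filters, a pseudocount of 0.1, only the groups compared, a replicate block, removal of a smooth GC trend, and leaving out each library. The GC trend was a lowess curve with a span of 0.3 on the median GC of the GENCODE M21 transcripts of each gene. The members and gene lists were chosen with earlier results of these data known. From each pathway list, the 2 genes with the smallest p for the drug after TAC and any called gene were named, at most 4 per list, and the 5 genes most like Pde3a, Pde1c and Pde5a. Signature sequences came from GENCODE M21 coding exons. Figures were drawn with matplotlib 3.10.9.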

Additional observations from a re-analysis of the deposited data

How the results depend on the processing

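In TAC+pimobendan minus TAC+control, the genes called (373 as reported) numbered 1 under median-ratio scaling, 1170 with TPM, 1 with the replicate block and 0 under quantile normalization, with no filter, with the GC correction (alone or with the block) and with only the groups compared. The members called numbered 2 with TPM and 0 under those other settings. In TAC+pimobendan minus Sham+pimobendan, the 558 genes called became 295 under quantile normalization and 0 with no filter, the replicate block, the GC correction (alone or with the block) and only the groups compared. TAC+control minus Sham+control had 2 genes called with only the groups compared, and the single gene of the mean drug effect was lost (0) with no filter and with both GC corrections. With the replicate block, Pde1c kept 0.79 for the drug after TAC (adjusted p = 0.0833), and 0.60 with the GC correction added (0.181). No other member was called in the reported fit, so the block had no other call of a member to end. In the other 3 pairs of groups compared, where the 0.1 rule did not treat the mice as paired, the block was fitted in the same way. Pde3b turned to -0.0505 for the drug after TAC and to -0.276 in the interaction under both GC corrections, and Pde3a in TAC+pimobendan minus Sham+pimobendan to -0.000434 under quantile normalization.

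Leaving out a library gave 0 to 1187 genes called for the drug after TAC (0 to 1 members), within 1.5 times of 373 only without Sham+pimobendan replicate 3 or TAC+control replicate 2; the highest came without TAC+pimobendan replicate 1, the 0 without TAC+control replicate 3 or TAC+pimobendan replicate 2. It gave 0 to 1222 for TAC with the drug (0 to 1 members; 0 without Sham+pimobendan replicates 2 or 3 or TAC+pimobendan replicates 2 or 3), 0 to 4 for TAC without the drug, 0 to 772 for the interaction (772 without TAC+pimobendan replicate 1) and 0 to 2 for the mean drug effect. Pde1c ranged from 0.65 to 0.89 for the drug after TAC and from -0.16 to 0.20 after sham. Pde3a ranged from -0.22 to 0.0023 for TAC without the drug and from -0.082 to 0.19 with it, and Pde2a from -0.48 to -0.25 for TAC with the drug. Over the single-gene log2 fold changes followed through the alternatives, 685 values kept their direction and side of the threshold and 225 no longer passed. Another 12 passed newly and 11 changed sign, the last all of Pde1c, Pde3a or Pde3b. Of the members, this count followed only Pde1c, Pde3a and some comparisons of Pde3b and Pde2a. Members outside it changed sign too. For the drug after TAC, Pde7a was positive in 16 of 22 alternatives, Pde4a and Pde4b in 18 each, Pde4d in 21 and Pde8a in 0. Pde3b in TAC+pimobendan minus Sham+pimobendan, also outside the count, was positive in 1 of 21.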
